A study of Mus musculus with 10 samples.

Results

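The promoter peaks described here were the places near gene starts where an antibody to Rcor2 gave a peak over control IgG, while the weaker of the 2 Rcor2 libraries was no higher than the stronger of the 2 input libraries. They were chosen by those heights: among peaks that the deposited table places at a promoter, a peak was kept where the smaller Rcor2 height was at most the larger input height. The rule took 1127 of 1619 promoter peaks (69.6%), and the table holds 6995 peaks in all. The other 492 promoter peaks, with both Rcor2 heights above both inputs, served for comparison. In the other classes the same rule would take 57.6% of 2515 gene body peaks, 58.2% of 1219 distal peaks and 54.3% of 1642 intergenic peaks. The 1127 peaks carry the names of 1175 genes, called member genes below.

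The study asked where Rcor2 lies on chromatin in the cortical midline of C57/Bl6 mouse embryos on embryonic day 14.5, and which transcripts change when the gene is deleted there. ChIP-seq, which sequences the DNA that an antibody pulls down from sheared chromatin, was done on wild type tissue with 2 libraries from the Rcor2 antibody, 2 from IgG and 2 of input, the same kind of chromatin sequenced without precipitation. RNA-seq compared 2 control libraries (genotype Rcor2f/f, with floxed alleles and no recombinase) with 2 conditional knockout libraries (genotype Rcor2f/f/EMX1-iCRE, cKO below). The labels do not say whether the libraries of a group came from separate litters or pooled embryos, so p-values measure only the spread between these libraries.

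Rcor2 belongs to the CoREST family, proteins that hold the histone demethylase Kdm1a (LSD1) and the deacetylases Hdac1 and Hdac2 together in a complex that is recruited to DNA by factors such as Rest. Emx1-driven recombinase acts in progenitors of the dorsal telencephalon and their descendants, and leaves other cells of the midline, such as blood vessels, meninges and microglia, with intact alleles. Promoters of broadly used genes in mammals often lie in CpG islands, stretches of GC-rich DNA that keep their CpG dinucleotides.

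To show DNA at gene starts that these peaks reached, the start windows of 6 genes are printed. The windows run from 250 bases before to 50 after a RefSeq transcription start (GRCm38.p6, the assembly of mm10). Each window holds the summit of a member peak, but window and peak need not cover the same bases. They are the windows with the summit inside among the genes and peaks named in the text. Capitals mark the motifs searched on both strands: GGGCGG (GC box, bound by Sp and Klf factors), CCAAT (bound by NFY), CCGGAAG (Ets family), TGACGTCA (cAMP response element), GCATGCGC (Nrf1), AAGATGGC (YY1), CACGTG (an E-box, bound for example by Myc and Usf proteins), CAGCTG (another E-box, bound by many bHLH factors), TATAAA (the core element read by TBP), TTCAGCACC (a stretch of the left part of the RE1 element that Rest binds) and GGACAGCG (a stretch of its right part). The 6 lie at chr7:120917528-120917827 (Polr3e, plus strand), chr10:78412994-78413293 (Rrp1, minus), chr13:62785759-62786058 (Gm5141, minus), chr6:88898731-88899030 (Mcm2, minus), chr1:167393792-167394091 (Mgst3, minus) and chr19:42431445-42431744 (Crtac1, minus), and each is written 5′ to 3′ on the strand of its gene.
Polr3e: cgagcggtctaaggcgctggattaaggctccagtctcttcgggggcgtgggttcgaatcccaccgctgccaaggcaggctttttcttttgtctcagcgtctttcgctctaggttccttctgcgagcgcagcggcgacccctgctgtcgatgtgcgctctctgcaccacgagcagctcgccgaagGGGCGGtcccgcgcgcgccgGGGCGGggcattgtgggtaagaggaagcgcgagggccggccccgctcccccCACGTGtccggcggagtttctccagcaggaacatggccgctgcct
Rrp1: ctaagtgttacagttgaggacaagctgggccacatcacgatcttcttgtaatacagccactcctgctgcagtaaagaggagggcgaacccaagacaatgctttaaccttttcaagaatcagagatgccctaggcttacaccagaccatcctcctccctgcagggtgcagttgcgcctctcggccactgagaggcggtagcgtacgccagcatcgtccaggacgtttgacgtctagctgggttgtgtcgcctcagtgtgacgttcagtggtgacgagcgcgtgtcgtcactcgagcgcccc
Gm5141: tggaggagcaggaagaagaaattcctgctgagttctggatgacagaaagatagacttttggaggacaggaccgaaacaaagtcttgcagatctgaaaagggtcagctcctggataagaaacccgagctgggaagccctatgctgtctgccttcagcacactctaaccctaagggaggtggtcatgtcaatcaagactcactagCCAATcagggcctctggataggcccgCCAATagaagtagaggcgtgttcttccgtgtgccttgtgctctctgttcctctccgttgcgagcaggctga
Mcm2: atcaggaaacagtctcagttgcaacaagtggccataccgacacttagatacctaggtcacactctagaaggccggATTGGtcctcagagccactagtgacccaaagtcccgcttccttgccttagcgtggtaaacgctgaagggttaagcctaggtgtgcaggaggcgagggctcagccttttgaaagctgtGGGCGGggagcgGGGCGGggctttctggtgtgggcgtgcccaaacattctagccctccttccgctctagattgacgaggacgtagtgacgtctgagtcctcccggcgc
Mgst3: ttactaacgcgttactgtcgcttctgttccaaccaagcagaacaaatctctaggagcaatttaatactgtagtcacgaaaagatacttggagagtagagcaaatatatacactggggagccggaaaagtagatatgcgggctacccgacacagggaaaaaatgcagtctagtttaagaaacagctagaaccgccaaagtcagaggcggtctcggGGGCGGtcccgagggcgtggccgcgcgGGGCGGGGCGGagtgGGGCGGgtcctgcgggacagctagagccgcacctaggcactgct
Crtac1: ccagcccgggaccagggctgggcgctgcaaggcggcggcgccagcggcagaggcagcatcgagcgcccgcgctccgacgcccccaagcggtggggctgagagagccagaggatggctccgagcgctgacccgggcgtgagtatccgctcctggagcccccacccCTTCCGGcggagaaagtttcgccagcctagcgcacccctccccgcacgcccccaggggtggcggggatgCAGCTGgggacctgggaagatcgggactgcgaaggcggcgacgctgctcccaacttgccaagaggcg

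Polr3e, which encodes a subunit of RNA polymerase III, has a window of 66.7% GC with 33 CpGs, 2 GC boxes and a CACGTG. In Mgst3, a microsomal glutathione transferase, the 21 CpGs lie beside 4 GC boxes, 2 of them overlapping in 1 run. Mcm2, a subunit of the replicative helicase, has 16 CpGs, 2 GC boxes and a CCAAT on the opposite strand, and Crtac1, a secreted matrix protein, has 31 CpGs with an Ets motif and a CAGCTG. Rrp1, a ribosome biogenesis gene, holds 18 CpGs and none of the motifs. The CpG-poor case is Gm5141, with 7 CpGs and 2 CCAAT boxes. Not all of these motifs lie inside the peak. The Polr3e peak ends at 120917701, before the 2 GC boxes and the CACGTG of its window. The Mgst3 peak starts at 167393880 and the Mcm2 peak at 88898865. The GC boxes of these 2 genes lie at lower positions, outside the peaks.

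CpG-rich DNA was the rule among the start windows that member peaks overlapped. Only 370 of the 1127 member peaks (32.8%) overlapped a start window, and for the others no peak sequence was read. Member peaks overlapped 415 start windows, with a median GC content of 60.3% and a median CpG observed/expected ratio (the CpG count over that expected from the C and G content) of 0.78. Over all 32851 start windows the medians were 52.7% and 0.38, and over the 118 windows overlapped by promoter peaks with Rcor2 above input they were 52.3% and 0.72. A ratio over 0.6, a usual mark of CpG islands, was found in 81.0% of member windows, 64.4% of above-input windows and 35.8% of all windows. Over the windows of all genes named for the peaks, overlapped or not, the promoter sets lay closer together: the share over 0.6 was 71.8% of 1163 member windows and 66.7% of 529 above-input windows, with a median GC content of 61.3% and 58.7%. Windows were selected here by overlap and share genes, so these shares are given as a description with no test.

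**Figure D1:**
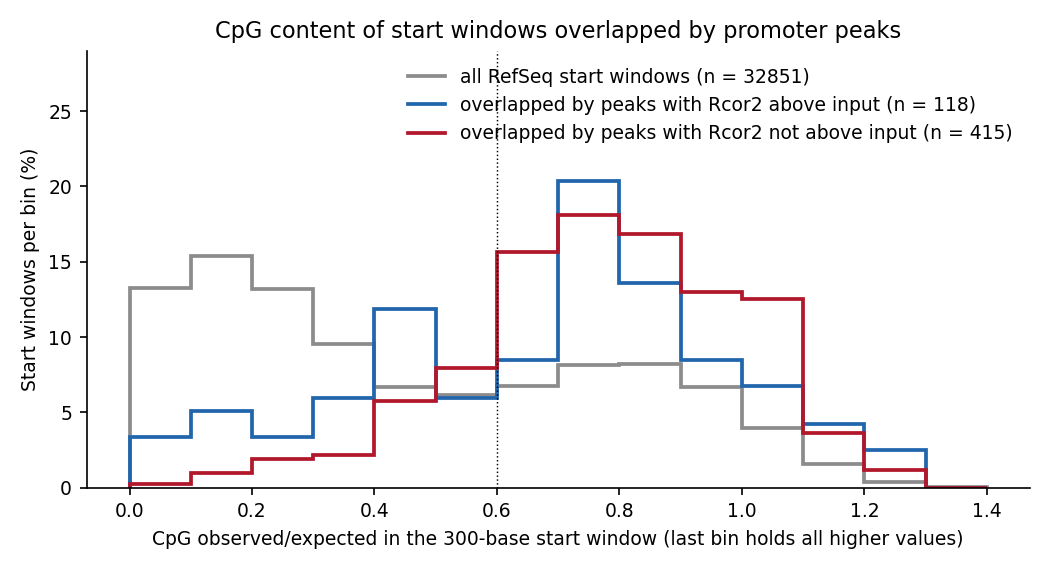
CpG observed/expected ratio of 300-base start windows (x) against the percentage of windows per bin (y) for windows overlapped by promoter peaks with Rcor2 not above input (red), above input (blue) and all RefSeq start windows (grey); the dotted line is 0.6. Of the red windows 81.0% lie right of the line, against 35.8% of all windows. The red windows were overlapped by 370 of the 1127 member peaks.

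The GC box stood in 61.0% of member windows, in 47.5% of above-input windows and in 35.7% of all windows. TGACGTCA was found in 8.19% of member windows against 1.79% of all windows, and in 4 of 118 above-input windows (3.39%). Over the windows of all genes named for the peaks, GGGCGG stood in 62.7% of the member and 58.0% of the above-input set, and TGACGTCA in 4.99% and 2.84%. CCGGAAG (17.6% against 8.86% of all), GCATGCGC (7.71% against 2.71%) and AAGATGGC (6.75% against 2.75%) were also more frequent in member windows than in all windows, at shares of 22.0%, 8.47% and 8.47% in above-input windows. CCAAT (39.5% against 37.4%), CACGTG (8.19% against 7.15%) and CAGCTG (14.0% against 16.3%) stood near the share of all windows, and TATAAA was rarer (6.99% against 13.6%). TTCAGCACC was in 0 of 415 member windows and in 0.371% of all windows, and GGACAGCG was in 2.17% and 1.26%. A match is only a match of letters, and most of these motifs are GC-rich like the windows themselves. A motif in an overlapped window need not lie inside the peak.

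The heights that chose the peaks are given as a description. In member peaks the median height (coverage in whole numbers, in which no depth correction can be seen) was 12 in Rcor2 library 1 and 19 in Rcor2 library 2. It was 18 and 17 in the inputs, and 4 and 3 in the IgG libraries. Promoter peaks above input had medians of 16 and 20 for Rcor2, 11 and 10 for input and 5 and 3 for IgG. Between the sets the medians of both input libraries differed by more than those of Rcor2 or IgG. The rule splits the sets by input and Rcor2 heights, so differences in these heights are built in and are no finding.

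**Figure D2:**
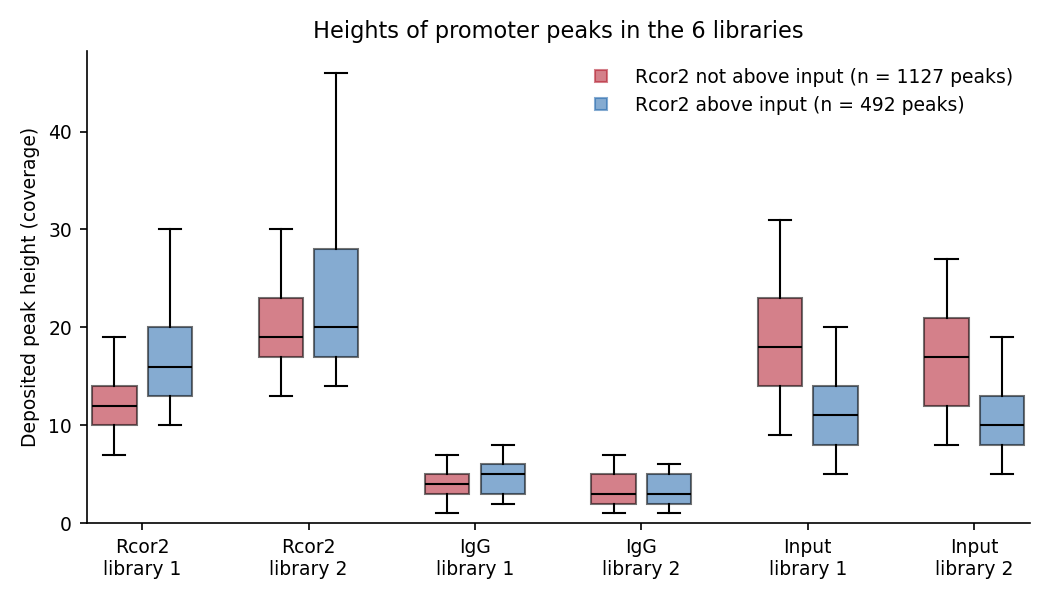
Deposited height (coverage, y) of promoter peaks in each of the 6 libraries (x), for the 1127 peaks with Rcor2 not above input (red) and the 492 above it (blue); boxes span the quartiles, lines are medians and whiskers run from the 5th to the 95th percentile. IgG medians sit at 3 to 5 in both sets, while the red input medians are 18 and 17 and the blue ones 11 and 10. Input and Rcor2 heights define the sets, so their differences between red and blue follow from the rule.

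Rcor2 library 1 had the smaller height in 1028 of the 1127 peaks (91.2%), so it set the rule for most of them. It was also the smaller in 414 of the 492 above-input promoter peaks (84.1%). Over all 6995 peaks the median heights of libraries 1 and 2 were 13 and 19, so this is no trait of member peaks alone. Rcor2 library 2 on its own was above both inputs at 565 member peaks (50.1%), and library 1 on its own at 19 (1.69%). At 310 peaks (27.5%) neither Rcor2 library was above the lower input. IgG was the lowest library nearly throughout. Both Rcor2 heights were above both IgG heights in 1110 member peaks (98.5%), and both input heights were above both IgG heights in 1103 (97.9%). Among above-input promoter peaks these shares were 100% and 85.4%. All peaks were called over IgG, so Rcor2 above IgG follows from the calling. The deposited pileup had a median of 23 (26 above input), the fold enrichment over IgG a median of 3.83 (4.33) and the −log10 q a median of 5.28 (6.56). The peaks were 231 bases long at the median, against 288.

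The difference between the smaller Rcor2 and the larger input height had a median of -7 and ran from -36 to 0. It was 0 in 81 peaks, -1 to -5 in 405, -6 to -10 in 313 and lower in 328. Just inside the rule, with a difference of 0, the highest peaks named Fzd7 (a Wnt receptor), Gm5141, Iffo2, Galnt10 and Mynn with Actrt3. Just outside, with a difference of 1, they named Hes3, Mfap2, Pappa, Edrf1 and Scamp5. The Fzd7 peak (chr1:59481600-59482079) read 19 and 42 with Rcor2, 9 and 6 with IgG and 18 and 19 in input, and the Scamp5 peak (chr9:57468164-57468507) read 20 and 38, 5 and 9, and 19 and 19. A margin of 1 unit of height separates such peaks, and 175 of the 492 above-input peaks had a difference of 1 or 2.

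The member peaks with the highest pileup were far above IgG, over which all peaks were called. Sh3glb2, an endophilin-type membrane protein (chr2:30358486-30358899, pileup 50), read 30 and 34 with Rcor2, 6 and 2 with IgG and 34 and 21 in input. St6galnac6, a sialyltransferase (pileup 50), read 22 and 49, 7 and 3, and 23 and 18, and Gas2l1 (pileup 49) read 19 and 48, 5 and 3, and 29 and 23. In the latter 2 peaks Rcor2 library 2 was above both inputs and library 1 was not. The highest fold enrichments over IgG were those of Sh3glb2 (8.49), Gas2l1 (8.33), Fzd7, Gm5141 and Tpgs2 with AW554918 (7.66 each).

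At the other end, input exceeded both Rcor2 libraries by far. Fgfbp3, an Fgf carrier protein (chr19:36919173-36919397), read 14 and 21 with Rcor2, 7 and 7 with IgG and 50 and 39 in input. Rrp1 (chr10:78412882-78413184) read 15 and 21, 2 and 4, and 48 and 49. Mir6546 (difference -36), Hnrnpl (-29) and Arnt (-28) completed the 5 peaks with the largest excess of input. In Fgfbp3 and Rrp1 alike both inputs were the highest libraries and both IgG libraries the lowest.

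Transfer RNA genes lay beside 27 member peaks. These short genes, made by RNA polymerase III, are often clustered between coding genes. The 27 peaks (2.40% of 1127) had their summits within 500 bases of a RefSeq tRNA gene, 11 of them inside it. The share was 2.44% of above-input promoter peaks, 0.199% of gene body peaks, 1.04% of intergenic and 8.78% of distal peaks, and 2.40% of all 6995 peaks. Thus the share was no larger than in the table as a whole. In the 27 peaks the median heights were 14 and 24 with Rcor2, 5 and 6 with IgG and 20 and 17 in input. The Polr3e peak above was one of them: a leucine tRNA gene (n-TLaag4, chr7:120917517-120917598) runs into the start of its printed window and holds the summit. The peak named for Mir6546 is another, with its summit inside the tRNA gene n-TLcag6 (chr1:171065984-171066066) and heights of 15 and 21 with Rcor2, 11 and 6 with IgG and 51 and 41 in input.

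Most summits lay close to a gene start, which the choice of promoter peaks builds in, and more lay upstream than downstream. For the 879 member peaks whose gene has a start in the RefSeq table, the median position was -210 bases (quartiles -444.5 and 306) and the median distance 400 bases. Summits within 150 bases of the start made up 12.3%, within 500 bases 60.9% and within 1000 bases 85.2%. A further 24 lay over 2000 bases away, at positions from -483808 to 1148492, so for these the deposited promoter class or gene name does not match the RefSeq starts used. The above-input promoter peaks lay farther out: of 378, 4.76% were within 150, 38.4% within 500 and 69.8% within 1000 bases, with a median distance of 649.5 bases. The stretch between 500 and 150 bases upstream held 307 member summits (34.9%), against 108 within 150 bases of the start on either side. Any start window was overlapped by 370 member peaks (32.8%) and by 106 above-input peaks (21.5%).

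**Figure D3:**
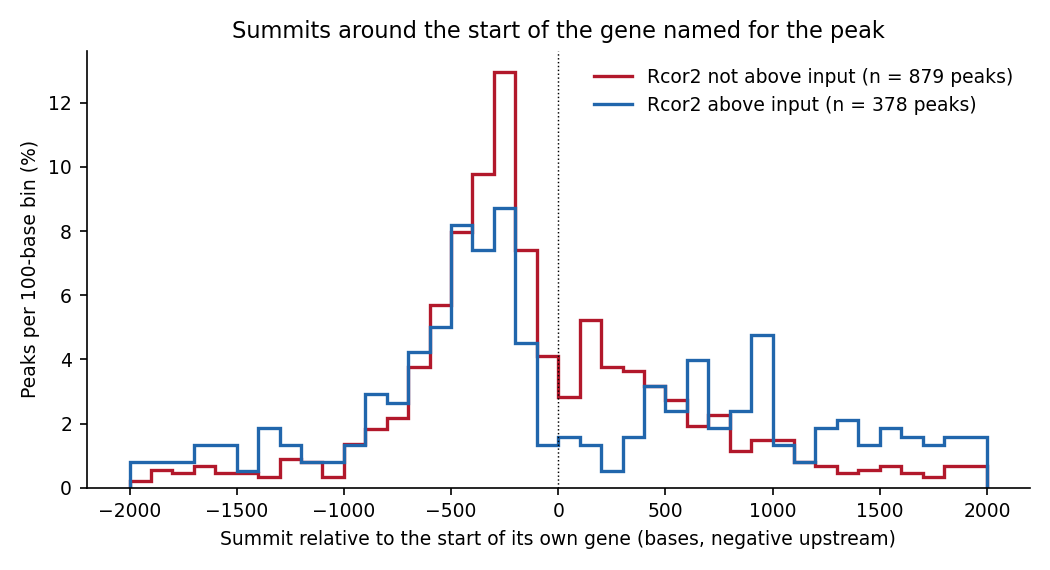
Summit position relative to the start of the gene named for the peak (x, bases, negative upstream) against the percentage of peaks per 100-base bin (y), for promoter peaks with Rcor2 not above input (red, 879 peaks) and above it (blue, 378); 24 and 17 summits lie beyond the axis. Both rise upstream of the start, and 60.9% of the red and 38.4% of the blue summits lie within 500 bases of it.

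More than 1 gene name stood on 111 member peaks (9.85%), mostly pairs of genes at a shared promoter, and on 36 of 492 above-input peaks (7.32%). Of the 1175 member genes 1110 had 1 member peak and 62 had 2. A total of 45 also had a promoter peak above input, 171 a gene body peak and 80 a distal peak, and 912 had member peaks only. Most peaks belonged to 2610316D01Rik (4 peaks), 1500004A13Rik and Csf2ra (3 each).

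Chromosome X held 2 of the 1127 member peaks (0.177%), 2 of the 492 above-input promoter peaks and 29 of all other peaks (0.539%), against 3.72% of all start windows. The scarcity was thus a property of the whole peak table.

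Member genes were mostly expressed genes. Of the 1175, 1131 were in the RNA table and 1092 (96.6% of those) reached a mean of 10 normalized counts and were tested, while 39 did not. The share tested was 94.8% for genes of above-input promoter peaks and 87.7% over the whole table. The median control level of member genes was 1249 normalized counts (quartiles 373 and 2847). It was also 1249 for genes of above-input promoter peaks, against 607 over the whole table. A control level of at least 1000 was found for 55.2% of member genes and 39.9% of all genes. These counts are not per length, so they compare sets and not single genes. The 5 with the most reads were Rmrp (the RNA of RNase MRP, 157070 and 154850 in the controls), Actb (152512 and 151561), Malat1 (120306 and 106993), Ctnnb1 (59633 and 61287) and Ptprs (49942 and 49382). In none of these 5 did limma call a change between the groups; Actb (log2 change -0.16, adjusted p = 0.133) and Malat1 (0.21, adjusted p = 0.0875) passed in the authors' deposited table, with adjusted p = 0.0351 and 0.00364.

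The check of the deletion came first in the RNA data. Rcor2 read 7901 and 7257 in the controls and 6363 and 6840 in cKO, a log2 change of -0.20 ± 0.06 (SE) with adjusted p = 0.0541 in limma. Both cKO libraries lay below both controls, and the change did not pass at 0.05; in the authors' deposited table its adjusted p was 0.0444. A gene-level count does not separate the floxed part of the gene. Rcor2 itself had no member peak.

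In the cKO midline more member genes rose than fell. Of the 1092 tested, 126 rose (11.5%) and 69 fell (6.32%), at an adjusted p under 0.05 in limma, the fit running over all 14324 tested genes. The background over all tested genes was 6.16% higher and 8.29% lower (14.5% in either direction), so the member share was above the background for rises and below it for falls. This difference of shares is a description and was not tested. The other 897 did not pass. Changes were small: the median log2 change was 0.02 (quartiles -0.09 and 0.15) against -0.01 over all tested genes, 76.3% stayed within 0.25 (73.4% of all), and 7 called genes changed at least 2-fold. The 195 called genes had a median size of 0.33 on the log2 scale. In all 195 the groups did not overlap, so such a gap adds nothing to a call, also where it is described for single called genes below. Called or not, the groups lay apart upward in 402 and downward in 316 of the 1092 tested member genes. Over 14323 tested gene names these counts were 3968 and 4767. In bulk tissue, fewer cells of a type and less RNA per cell cannot be told apart.

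Other tools gave counts of the same order. edgeR called 127 higher and 53 lower, beside 5.69% and 6.47% of all tested genes, and DESeq2 called 114 and 56, beside 5.93% and 6.53%. The authors' deposited table had 113 higher and 58 lower, beside 5.93% and 6.73% of the genes it gives an adjusted p.

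The counts rest on both control libraries. Without control library 1 they were 11 higher and 9 lower, without control library 2 they were 13 and 6, and without cKO library 2 they were 190 and 127. Of the 39 called genes that the naming rule chose, 28 no longer passed without control library 1 and 27 without control library 2, while none changed sign. With 1 control left, the spread within groups comes from the cKO pair, and the lone control is assumed to vary like it. For fits that leave out an RNA library, the share called over all tested genes is not given. Whether the member shares differ from the background in those fits is therefore not shown. Sizes could stay close to the full value where the call was lost, as for Neurog1 (a log2 change of 0.72, and 0.69 or 0.75 without control library 1 or 2) and Crtac1 (-0.62, and -0.63 or -0.60). Without cKO library 1, in which mesenchymal markers stood high, they were 84 and 48. In called member genes the changes in cKO library 1 were the larger ones: it lay farther from the control mean than cKO library 2 in 172 of 195 (88.2%). The same share over all called genes is not given, so this cannot be read as a trait of member genes. Any part of the mesenchymal markers in it was not tested.

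Of the 456 tested genes of above-input promoter peaks, 45 rose (9.87%) and 18 fell (3.95%), with a median log2 change of 0.03. Both promoter sets thus had more genes called higher than lower, and the difference between them was not tested. Nor did calls follow the height difference in order: by the lowest difference of a gene, 18.1% were called at 0 to -3, 17.1% at -4 to -7, 23.6% at -8 to -11 and 14.1% at -12 and under.

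The same order of shares was seen at every level of expression. With a mean of 10 to 300 normalized counts, 6.37% of 204 member genes rose against 3.77% of all tested genes, and 1.47% fell against 3.72%. From 300 to 1000 the shares were 10.7% against 5.99% higher and 4.20% against 7.42% lower, and from 1000 to 3000 they were 12.7% against 7.85% and 7.20% against 10.2%. From 3000 up, 14.7% of 265 member genes rose against 7.90%, and 10.9% fell against 14.3%. In each class the member share was above that of all genes for rises and below it for falls.

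**Figure D4:**
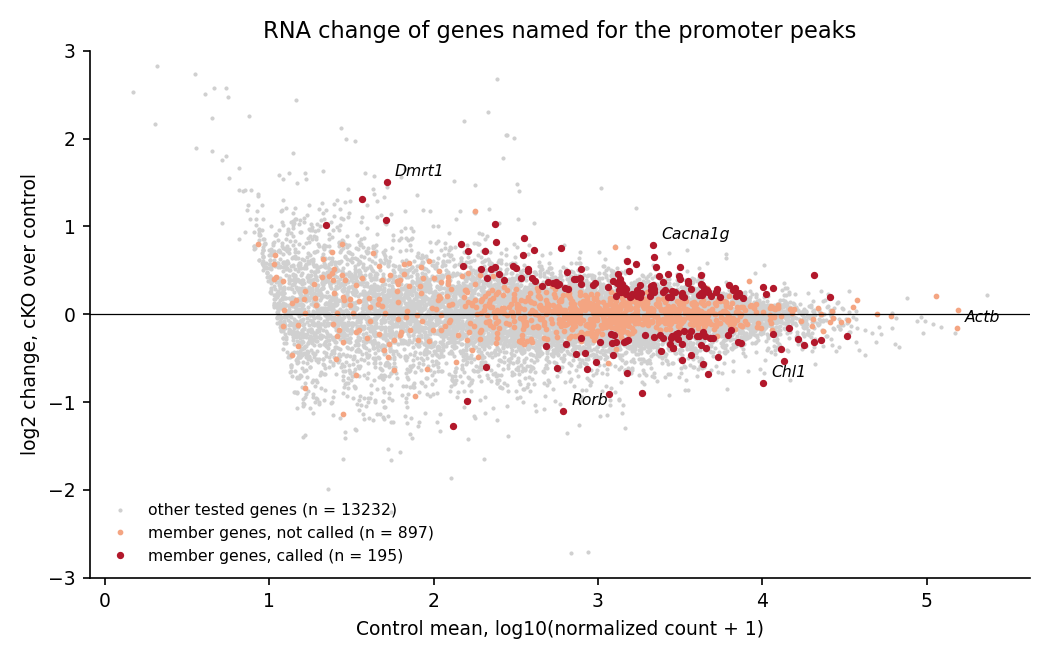
RNA change between cKO and control (y, log2) against control level (x, log10 of normalized count + 1) for member genes called (dark red, 195) and not called (orange, 897) and for other tested genes (grey); 2 genes that are no members lie beyond the axis. Called member genes are 126 above and 69 below the line, most of them within 0.5 of it.

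Genes that share a peak with another gene were described apart, with no test of the difference. Of 190 tested genes from member peaks with several names, 6 rose and 5 fell (5.79% called), against 121 and 64 of the 909 from peaks with 1 name (20.4%). Their median control levels were 880.0 and 1392 normalized counts. Among above-input promoter peaks the shares were 14.3% of 56 and 13.8% of 400. In 83 peaks both genes of a pair were tested, and in 75 of them neither was called, in 7 one was and in 1 both were. That pair was Plagl1 (0.34, adjusted p = 0.0251 in limma), an imprinted zinc finger factor, and Hymai (0.54, adjusted p = 0.0322), chosen here after its values were seen; as the counter's use of strand is not given, reads of overlapping genes cannot be told apart. Member genes that also had a gene body peak were called in 30.5% of 167 cases (34 higher, 17 lower), and those with member peaks only in 15.0% of 846, at median control levels of 2068 and 1164.

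Cell cycle genes with a member peak rose nearly as a group. The list of 46 such genes held 7 member genes, of which 6 rose and 0 fell, while over the list 30 of 46 rose. Mcm3, like Mcm2 a helicase subunit, read 4209 and 4230 in the controls and 5539 and 5154 in cKO (log2 change 0.34 ± 0.05, limma adjusted p = 0.00690). Mcm2 read 4628 and 4641 against 5702 and 5545 (0.28, adjusted p = 0.00778). In both, the cKO libraries lay above the controls with a gap wider than the spread within either group. The mitotic genes Cenpf (0.31) and Kif11 (0.21), the S-phase regulator E2f1 (0.37) and the thymidylate synthase Tyms (0.30) also rose, and Rb1, the retinoblastoma pocket protein that restrains E2f factors, had a log2 change of -0.05 (adjusted p = 0.575). Without cKO library 1, 5 of the 7 passed, E2f1 being lost.

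Histone genes of the replication-dependent clusters, whose transcripts pile up in S phase, also rose where they were called. Of 17 with a member peak 12 were tested and 6 rose, with 0 falling, and over the list, whose name pattern also took H2af variant genes, 27 of 65 rose. Hist1h1b, a linker histone, read 11270 and 12037 in the controls and 14603 and 13987 in cKO (0.30 ± 0.05, limma adjusted p = 0.00956). Hist1h4d read 10730 and 10405 against 12590 and 12167 (0.23, adjusted p = 0.0146). The groups did not overlap in either gene. Histone genes are near-identical copies of each other, so reads may be split between them, and their transcripts mostly lack poly(A) tails.

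Progenitor genes rose where they were called. Of 6 radial glia genes 3 rose, and over the list 17 of 34 rose and 2 fell. Pdpn, the membrane glycoprotein podoplanin, read 1471 and 1522 in the controls and 2357 and 2199 in cKO (0.61 ± 0.06, limma adjusted p = 0.00297). The progenitor factor Sox2 read 4637 and 4737 against 5566 and 5603 (0.25, adjusted p = 0.00956), and the Notch effector Hes1 changed by 0.26 (adjusted p = 0.0228; not passed without cKO library 1). The intermediate filament gene Vim (0.16, adjusted p = 0.0562) passed with TMM or quantile scaling, by DESeq2 and in the authors' deposited table, and Fgfr2 and Tnc did not pass.

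Among 9 cortical transcription factors 4 rose and 1 fell, and over the list of 59 tested 22 rose and 13 fell. The proneural factor Neurog1 read 200 and 209 in the controls and 344 and 330 in cKO (0.72 ± 0.11, limma adjusted p = 0.00697). Its relative Neurog2 read 6609 and 6673 against 8066 and 8024 (0.28, adjusted p = 0.00729), and Sox2 and Hes1 were the other rises. Both neurogenins were higher in each cKO library than in each control. The fall was Id2, which blocks proneural bHLH proteins, from 4651 and 4065 to 2569 and 3371 (-0.56, adjusted p = 0.0178; not called by DESeq2 or in the authors' deposited table). Fezf2 (-0.10, adjusted p = 0.184), Myt1, Nfix and Id1 did not pass.

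Of 8 signalling genes 3 rose, and over the list 20 of 68 rose and 2 fell. The rises were Gas1, a hedgehog co-receptor, from 3533 and 3520 to 4629 and 4572 (0.38 ± 0.04, limma adjusted p = 0.00429), Fzd7 from 1372 and 1387 to 1612 and 1744 (0.28, adjusted p = 0.0191) and Tcf7l1 (0.52, adjusted p = 0.0484). Tcf7l1, a repressing Wnt effector, was not called without cKO library 1, by edgeR, by DESeq2 or in the authors' deposited table. Ptch1, the hedgehog receptor, had a log2 change of -0.21 (adjusted p = 0.0674) and Ctnnb1 of -0.02.

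Axon guidance genes included the largest fall among the listed members, that of Sema3c. Of 9 members 2 fell and 1 rose, and over the list of 56 tested 14 fell and 8 rose. Sema3c, a secreted semaphorin known as an attractant of callosal axons, read 4509 and 4852 in the controls and 2800 and 3067 in cKO (-0.67 ± 0.06, limma adjusted p = 0.00270). Nrp1, the neuropilin through which class 3 semaphorins signal, read 13487 and 13762 against 8914 and 9928 (-0.53 ± 0.06, adjusted p = 0.00429). Every cKO value of these 2 genes lay under every control value by more than the spread within a group. The semaphorin receptor Plxnc1 rose by 0.21 (adjusted p = 0.0269; not passed without cKO library 1). Sema3a, another Nrp1 ligand, changed by -0.26 (adjusted p = 0.0507), and Draxin, Epha4, Efna2, Sema5a and Sema6a did not pass.

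Few neuronal genes carried a member peak. Celf4, an RNA-binding protein of neurons, was the 1 member among 27 tested pan-neuronal genes and read 2864 and 2840 in the controls and 2099 and 2283 in cKO (-0.38, limma adjusted p = 0.00689); over the list 23 of 27 fell. Unc13a, a synaptic vesicle priming protein, was the 1 member of 39 tested neuronal genes known as Rest targets and read 3769 and 3546 against 2468 and 2869 (-0.46, adjusted p = 0.00811), with 28 of the 39 falling. In both genes the groups did not overlap.

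Chromatin genes were mixed. Of 10 chromatin regulators 3 rose and 1 fell, and over the list of 72 tested 4 rose and 4 fell. Smarca2, a remodelling ATPase of the SWI/SNF complex, read 5506 and 5247 in the controls and 3591 and 4074 in cKO (-0.49 ± 0.06, limma adjusted p = 0.00568). The Polycomb gene Cbx2 read 2093 and 2091 against 2621 and 2594 (0.32, adjusted p = 0.00716). The other rises were the DNA methyltransferase Dnmt3a (0.30) and the Polycomb subunit Suz12 (0.28, not passed without cKO library 1), while Ezh2 (0.08) and Smarca4 (-0.04) did not pass.

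Among the CoREST complex and its partners, 4 genes had member peaks and 2 of them rose, and over the list of 21 tested 3 rose and 1 fell. Rest read 1347 and 1406 in the controls and 1754 and 1540 in cKO (0.26 ± 0.07, limma adjusted p = 0.0494; 0.0779 by edgeR). The zinc finger factor Rreb1 read 318 and 290 against 505 and 391 (0.55 ± 0.13, adjusted p = 0.0299). In each gene both cKO libraries were above both controls, with cKO library 1 the higher, and neither passed without that library. Hdac1 (-0.04) and Hdac2 (-0.02) did not pass. Of 28 zinc finger genes 2 rose and 1 fell, and over the list of 414 tested 12 rose and 17 fell. The called members were Zfp516 (0.46, adjusted p = 0.00597), Zfp423 (0.43, adjusted p = 0.0108) and Zfp846 (-0.29, adjusted p = 0.0134).

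In the machinery shared by all cells limma called 0 members. This held for 8 ribosomal protein genes, 6 of the respiratory chain, 6 of splicing, 5 translation factors and 4 proteasome genes, 29 genes in all. The whole lists were also rarely called, so this is no trait of the members. Over the lists, 2 of 77 ribosomal genes rose and 0 fell, and of 77 respiratory chain genes 1 rose and 1 fell. Of 68 splicing genes 1 rose and 0 fell, of 62 translation factors 1 rose and 2 fell, and of 44 proteasome genes 0 were called. Of the 29 members 2 had an unadjusted p under 0.05 (Ndufb2, lower, and Ndufv3, higher, both of respiratory complex I). DESeq2, edgeR and the authors' deposited table also called 0, quantile normalization called 1 (Hnrnpu), and without cKO library 2 limma called 3 (Cox7a2 and Ndufb2, lower, and Eif4g3, higher). Examples, chosen after their values were seen, are Rpl18 (5678 and 5602 in the controls, 5402 and 5643 in cKO), Sf3b1 (22727 and 22875 against 22850 and 22969) and Psma4 (2665 and 2787 against 2647 and 2758). In all 3 the groups overlapped.

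The 10 largest rises among called members were led by genes low in the controls. Dmrt1, a gonadal transcription factor, read 41.0 and 60.5 in the controls and 160 and 127 in cKO (1.50 ± 0.23, limma adjusted p = 0.00749). Skap1, an adaptor of immune cell signalling, read 30.2 and 41.1 against 99.7 and 79.3 (1.31, adjusted p = 0.0115). Cacna1g, a T-type calcium channel, was the abundant one, from 2124 and 2215 to 4195 and 3352 (0.79 ± 0.09, adjusted p = 0.00435). In all 3 the cKO libraries lay clear of the controls, as the choice of these genes required, and cKO library 1 was the higher. Adamts4, a matrix protease, read 359 and 346 against 673 and 616 (0.87, adjusted p = 0.00387), and Plin3, a lipid droplet protein, read 405 and 409 against 701 and 657 (0.74, adjusted p = 0.00429). The remaining rises were Arhgef19 (1.07, not passed without cKO library 1), Tesc (1.02), the galectin Lgals1 (0.83), the junction protein Tjp3 (0.80) and the matrix protein Hmcn1 (0.75). Lgals1 leaned on 1 library, at 237 and 239 in the controls and 542 and 330 in cKO.

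The 10 largest falls included neuronal genes. Rorb, a nuclear receptor known from layer 4 neurons, read 632 and 595 in the controls and 256 and 317 in cKO (-1.10 ± 0.12, limma adjusted p = 0.00421). C1ql3, a secreted synaptic protein, read 125 and 137 against 45.2 and 63.6 (-1.27, adjusted p = 0.00865). Chl1, a cell adhesion molecule of the L1 family, read 10047 and 10117 against 5342 and 6458 (-0.78 ± 0.08, adjusted p = 0.00387). None of these groups overlapped, as the choice of these genes required. Mgst3, whose window is printed above, read 863 and 859 against 509 and 616 (-0.62, adjusted p = 0.00778), and Crtac1 read 556 and 566 against 367 and 364 (-0.62, adjusted p = 0.00589). Next to Sema3c, the kinase Camk4 (-0.91), the ubiquitin ligases Pdzrn4 (-0.99) and Pdzrn3 (-0.67) and the peptide transporter Slc15a2 (-0.90) completed the list. Slc15a2 rested on control library 2, at 1327 and 2403 in the controls and 935 and 979 in cKO; without that library its log2 change was -0.47 (adjusted p = 0.0598 in limma), and the authors' deposited table gave adjusted p = 0.124.

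**Figure D5:**
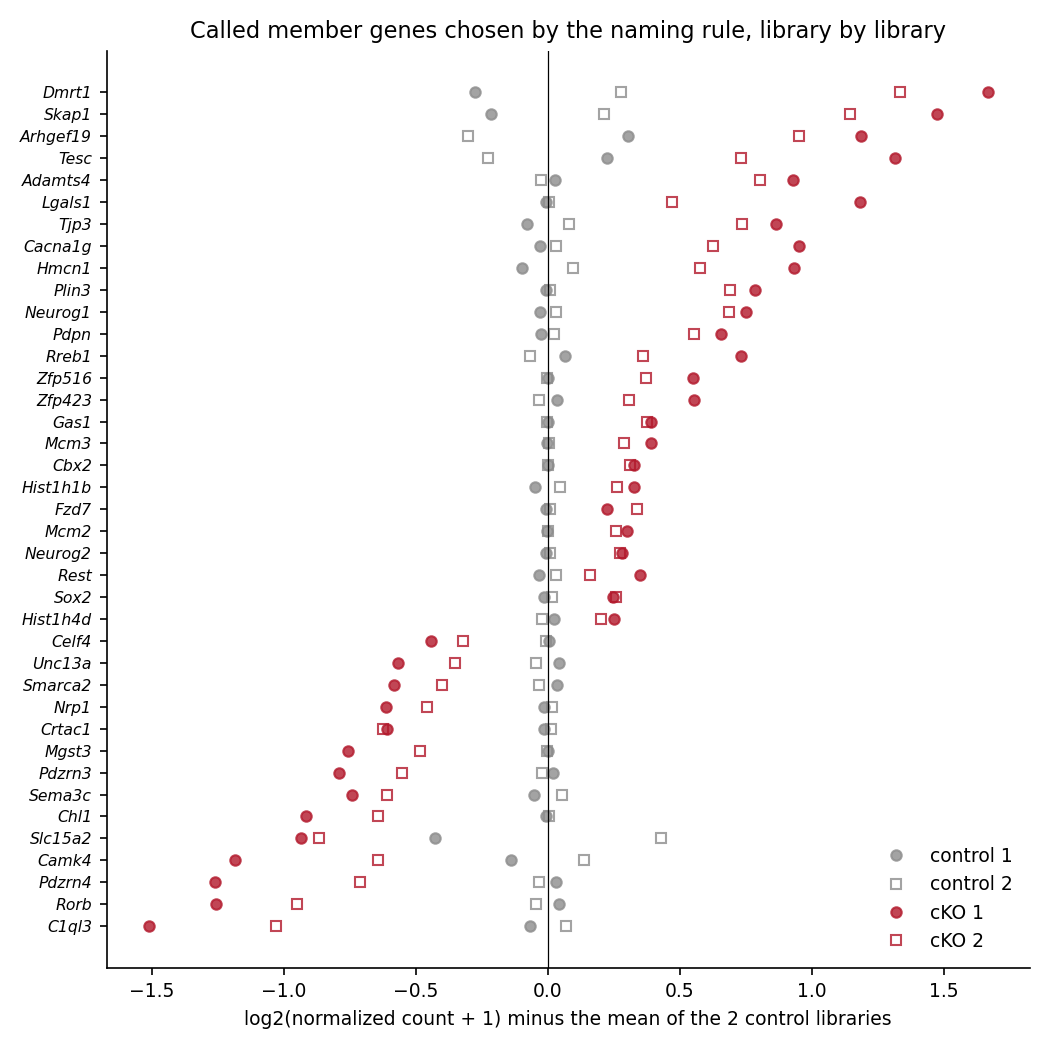
Each of the 4 RNA libraries (points) for the 39 called member genes chosen by the naming rule, as log2(normalized count + 1) minus the mean of the 2 control libraries (x), ordered by change (y). In 25 genes both cKO libraries lie right of both controls and in 14 left of both, and cKO library 1 is the farther one in 36. Every called member gene had groups apart, so this separation follows from the choice of genes.

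The genes with most member peaks were not called: 2610316D01Rik (log2 change 0.38, limma adjusted p = 0.121), 1500004A13Rik (-0.06, adjusted p = 0.669), Csf2ra (0.45, adjusted p = 0.0513), Polr3e (0.10, adjusted p = 0.235) and Zfp335 (0.10, adjusted p = 0.384) did not pass. Polr3e read 1444 and 1429 in the controls and 1537 and 1548 in cKO.

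Markers of other cells in the dissected tissue moved with the groups to some degree, and no gene of the marker lists had a member peak. The summed level of 10 markers of meninges and mesenchyme was 2205 and 2026 in the controls and 9433 and 2700 in cKO; collagens made up most of the excess of cKO library 1 (Col1a1 read 355, 258, 2442 and 611), and 3 of 9 tested markers rose. Of 4 erythroid markers 2 fell, with sums of 1675 and 2350 against 890 and 1407 (5 of the 9 listed were not in the table). Of 7 tested ventral telencephalon markers 3 fell, with sums of 1881 and 2032 against 1226 and 1247, and of 6 tested choroid plexus markers 2 rose, with sums of 623 and 667 against 867 and 874 and Kcne2 at 0 throughout. None of 10 microglial and 10 endothelial markers passed, with sums from 1828 to 2083 and from 4078 to 4491. The 10 dorsal cortex markers of the labelled tissue summed to 92509 and 94514 against 90880 and 89345 (3 rose, 3 fell). The part of other cells in the changes of member genes was not tested.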

How the data were processed

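RNA-seq and ChIP-seq tables of embryonic mouse cortical midline were used. Peak heights and pileup are coverage signal that the authors deposited as whole numbers, and library totals are not stated. The fold enrichment over IgG, and the −log10 p and −log10 q values, are those of the authors' peak caller, recognised from the deposited columns' layout and range; for its settings, the promoter class and the gene naming rule nothing is stated. The RNA signal is a normalized count as deposited, and the authors' log2 fold changes, test statistic (a score, not used here) and p-values are in the same table per the file headers. HISAT2 2.1.0 and Trim Galore are named in the submitters' processing notes, without their role; the counter and its use of strand were not given in the sources used here. Some 23 RNA names had become dates in the deposited table.

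Each RNA column was whole reads divided by 1 factor: 100% of values came out whole (relative tolerance 1e-04), giving 30270598 and 27674987 reads in the controls and 28309925 and 29783893 in cKO. limma 3.58.1 (R 4.3.3) was fitted with a trend to log2(normalized count + 1) of 14324 genes, those whose mean reached 10 (2014 others were left out), with Benjamini-Hochberg adjustment and a threshold of 0.05, two-sided. Fold changes are on that scale, which understates low genes. An exact permutation test of 2 against 2 libraries cannot go below p = 0.333. edgeR 4.0.16 and DESeq2 1.42.0 on the recovered reads, TMM and quantile scaling, other filters and pseudocounts, other height rules and leaving out libraries were alternatives. The limma script was tested on simulated data.

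Named genes were Rcor2, the 10 largest rises and falls (called, mean of at least 50, groups apart, no predicted name, not on X or Y), the 5 most abundant, 5 with the most peaks and up to 2 called members of each list; other list members are named to complete the counts, chosen after their values were seen. Named peaks were the 5 at each extreme and at each side of the rule. Members and lists were chosen with earlier results of these data known. Peak-centre sequence was planned, but no genome was used here, so RefSeq start windows (GRCm38.p6) are shown; chromosome 18 has none. Transfer RNA genes were looked up after the Polr3e window was seen.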

Additional observations from a re-analysis of the deposited data

How the results depend on the processing

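Counts of called member genes moved most with single libraries: leaving out 1 RNA or ChIP library at a time gave 11 to 190 higher and 6 to 127 lower, and the median log2 change ran from 0.0158 to 0.0294. Without Rcor2 library 1 the rule took 562 peaks (58 higher, 38 lower), and without Rcor2 library 2 it took 1108. Comparing mean heights took 640 peaks (71 higher, 41 lower, median 0.0321), requiring both Rcor2 heights at or under both inputs took 310 (31 and 21), and a −log10 q of at least 10 left 151 (17 and 7, median 0.0135). Summits within 500 bases of the start, an alternative chosen after seeing the data, gave 59 and 33 (median 0.0145). These sets are smaller by construction, so shares of tested genes are given too. Higher and lower were 10.2% and 6.7% without Rcor2 library 1, and 11.0% and 6.34% by mean heights. With both Rcor2 heights at or under both inputs they were 9.63% and 6.52%. The −log10 q cut gave 11.0% and 4.55%, and summits within 500 bases 10.4% and 5.80%. The main rule gave 11.5% and 6.32%, beside 6.16% and 8.29% of all tested genes. With each height divided by the median of its library over all peaks, the rule took more, 1267 peaks (78.3% of promoter peaks). Of their 1213 tested genes 138 were higher (11.4%) and 77 lower (6.35%), with a median log2 change of 0.0232. The median of 0.0242 became 0.0403 with DESeq2, 0.0398 with edgeR and 0.0389 with TMM scaling. It was 0.0384 with quantile normalization and 0.0384 in the authors' deposited table. Over all tested genes the median also moved, from -0.012 in the main fit to 0.00266 with TMM scaling and 0.00087 with quantile normalization. A higher member median under these scalings is thus no stronger rise relative to all genes. The cause was not tested. With the replicate number as a block, 130 were higher and 73 lower, and 183 of the 195 called genes were shared. Same-numbered libraries deviated together (correlation 0.242), but 2 pairs do not establish a pairing. Ctnnb1 changed sign with quantile normalization (0.10) and without cKO library 1 (0.00151, with a lowest value of -0.0413 without cKO library 2), and Rmrp without cKO library 1 (-0.0336, with a highest value of 0.139 without cKO library 2). Counts by list under other tools and without cKO library 1 were also added after seeing the data. Whole-peak sequence was not run, as no genome was used.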
